A study of Rattus norvegicus with 12 samples.

Results

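The genes described here encode the subunits, dedicated assembly chaperones, activators and inhibitor of the proteasome, measured in rat liver. They were taken by symbol: every probe set that the platform annotation assigns to a single gene called Psma to Psmg followed by a number, leaving out the interferon-inducible subunits Psmb8 and Psmb9. This gave 56 of the 31042 probe sets on the array that are not controls, for 42 genes. Of these probe sets 51 passed the filter on low signal and 5 did not, and the 5 belonged to genes with another probe set that passed, so that all 42 genes were among the 9300 tested. No probe set names Psmb6 or Psme3 alone, so these genes are not members, and probe sets that name them with other genes are given apart.

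Liver RNA of 12 rats was hybridised to Affymetrix arrays, 1 animal per array and 3 animals per group. The Sprague Dawley rats were either germ-free (animals 1, 3 and 4) or conventional, labelled normal (animals 6, 7 and 8). The Han Wistar rats were either untreated (animals 1, 2 and 3) or drank streptomycin and penicillin for 8 days (animals 13, 14 and 15). The protocol names 4 mg/ml streptomycin, 2 mg/ml penicillin and a 10X stock, 30 mL of which went into 270 mL of water, and leaves unclear if these concentrations apply before or after that dilution. Strain and treatment pair off in this design, so animals were compared within a strain only. Diet, age, sex, supplier and time of collection are not in the labels, and between the Sprague Dawley groups they cannot be told apart from the germ-free state. In a piece of whole liver, fewer cells of a type and less RNA per cell cannot be told apart.

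The proteasome degrades proteins marked with ubiquitin. Its 20S core is a barrel of alpha rings, which gate the entrance, around beta rings, which hold the proteolytic sites. The 19S regulatory particle caps the barrel. Its base holds a ring of ATPases that unfold the substrate and thread it into the core, and its lid removes the ubiquitin chain. Dedicated chaperones assemble both parts, and alternative caps or an inhibitor can take the place of the 19S particle. Subunit genes are known to be transcribed in concert, in part through the factor NFE2L1, and liver has a high rate of protein turnover.

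Signals are on the linear MAS5 scale, on which every array has a trimmed mean of 100. Fold changes are differences of log2(signal + 16), which understates the change of dim genes, and are given ± the standard error (SE). A gene was said to rise or fall where limma's p-value, adjusted by Benjamini-Hochberg over the 9300 genes, was under 0.05. The summed signal of the 7 hepatocyte markers tested was 51977 to 59231 in germ-free and 48863 to 53364 in conventional animals. None of the 7 passed between these groups, and 6 lay above 0, with a median log2 fold change of 0.17. Some markers of other liver cells differed between these groups. Of 6 endothelial markers 5 rose, beside 6.44% of all genes, with a summed signal of 1279 to 1803 in germ-free and 697 to 879.5 in conventional livers. Of 6 macrophage markers 1 (Clec4f) fell, beside 6.74% of all genes. The estimates of these 6 lay below 0 for 3 and above 0 for 3, with a median of -0.12. Their sums, in which bright markers weigh most, were 1168 to 1619 and 1607 to 2431. None of 5 stellate cell markers passed, and 3 lay below 0 and 2 above (median -0.04, sums of 1484 to 1655 and 1782 to 2062). None of 2 lymphocyte or 2 bile duct markers passed. The ratio of the 3' to the 5' beta-actin control probe set, a sign of RNA quality, averaged 4.39 ± 0.762 (SD, n = 3) among the germ-free and 5.37 ± 0.839 among the conventional rats (n = 3, two-sided exact permutation p = 0.2, where 0.1 is the smallest possible). The part of these differences in the results for the proteasome was not tested, beyond a fit with the actin ratio as a covariate that is given below.

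In germ-free livers 20 of the 42 proteasome genes fell and none rose, against 6.74% of all genes tested that fell and 6.44% that rose (13.2% in either direction). The genes that fell were almost all structural subunits of the 26S particle: 19 of the 30 constitutive 20S and 19S subunits, against 1 of the 12 chaperones, activators, inhibitor and inducible subunit Psmb10. The median log2 fold change of the 42 genes was -0.34, with a range of -0.83 to 0.22, beside 0.02 for all genes. Unadjusted p-values under 0.05 were found for 27 of the 42, beside 28.1% of all genes. The estimate lay below 0 for 36 of the 42, including 30 of the 30 constitutive subunits, where 46.3% of all genes lay below 0. Each gene is counted by its probe set with the highest mean signal, and other probe sets of Psmc6 lay above 0 (0.26 and 0.03). In 27 genes every germ-free animal was below every conventional animal, a pattern found in 14.5% of all genes. Psmd9 alone showed the opposite order, which 15.4% of all genes did, and the groups overlapped in the other 14, so that 28 of 42 did not overlap in either direction, beside 29.9% of all genes. The medians depended on the scaling to a limited degree: -0.29 after quantile normalisation, when 17 genes fell, and -0.45 after centring each array on its median, when 27 fell, a step that moved the median of all genes by -0.11. No gene rose under either. Centring shifts the fold change of every gene alike, and quantile normalisation moved the median of all genes by -0.04. The shares of all genes that fell under these scalings are not given, so the counts of 17 and 27 have no background beside them.

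**Figure D1:**
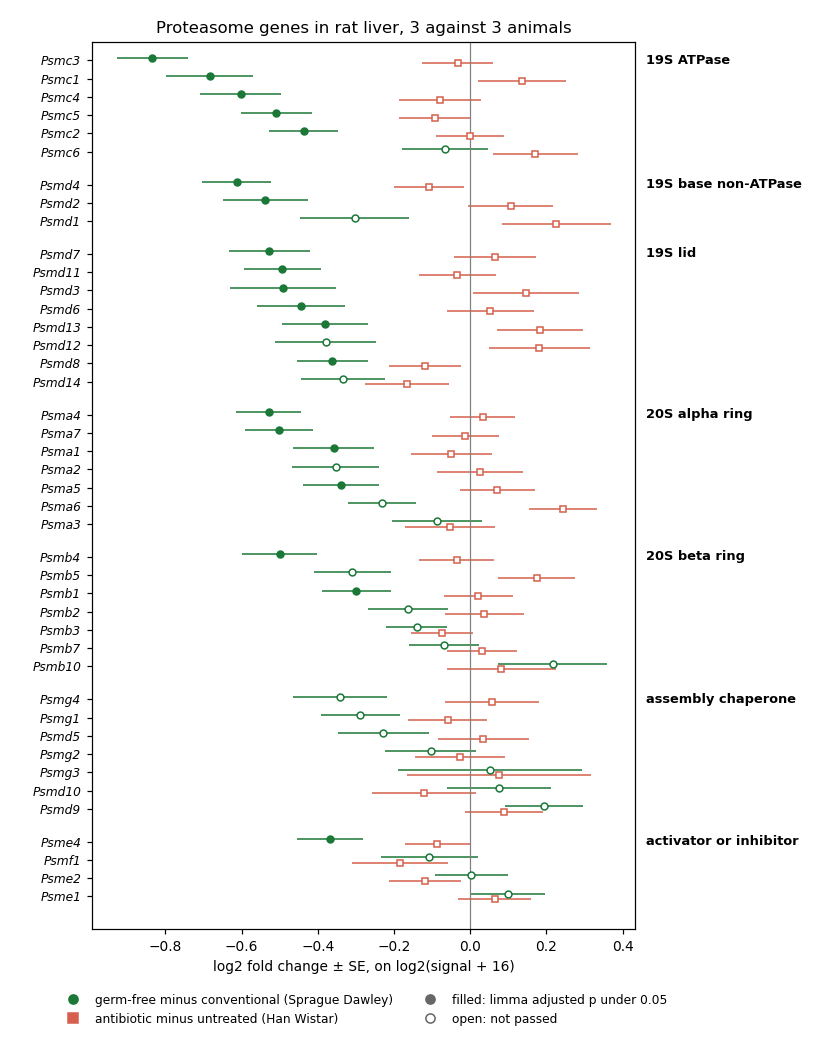
Log2 fold change (x axis, on log2(signal + 16), bars are the standard error) of each of the 42 proteasome genes (y axis), grouped by role, for germ-free minus conventional Sprague Dawley rats (circles) and antibiotic-treated minus untreated Han Wistar rats (squares), 3 animals per group. Filled symbols mark an adjusted p under 0.05: 20 circles are filled, all to the left of 0, and no square is.

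**Figure D2:**
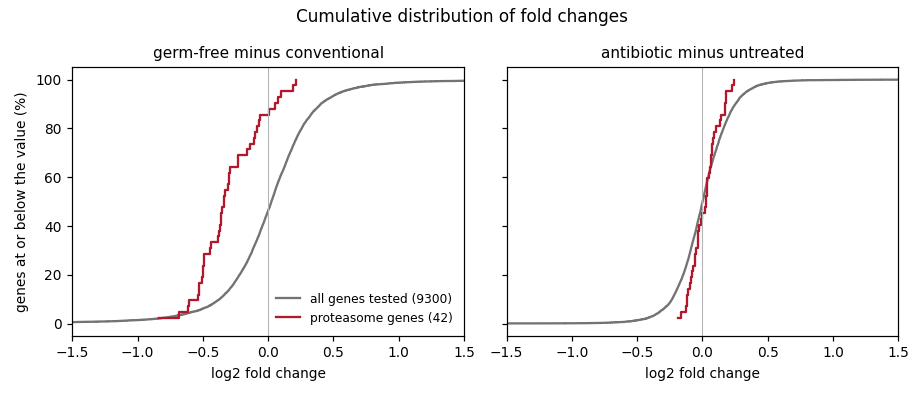
Share of genes (y axis, percent) at or below each log2 fold change (x axis) for the 42 proteasome genes (red) and the 9300 genes tested (grey). In the germ-free comparison the red curve lies to the left, with a median of -0.34 against 0.02, and in the antibiotic comparison the medians are 0.03 and 0.00.

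Averaged over the 42 genes, the mean log2 signal was 9.07 to 9.09 in the 3 germ-free livers and 9.37 to 9.42 in the 3 conventional livers, so the groups stood apart by more than the spread within either (SD 0.0128 and 0.0299). It was 9.11 to 9.20 in untreated and 9.14 to 9.21 in antibiotic-treated Han Wistar livers, which overlapped. Within groups, the mean correlation of the genes' deviations from the group mean was 0.0577 over 861 pairs of genes on 12 arrays, beside 0.00705 over all genes tested.

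**Figure D3:**
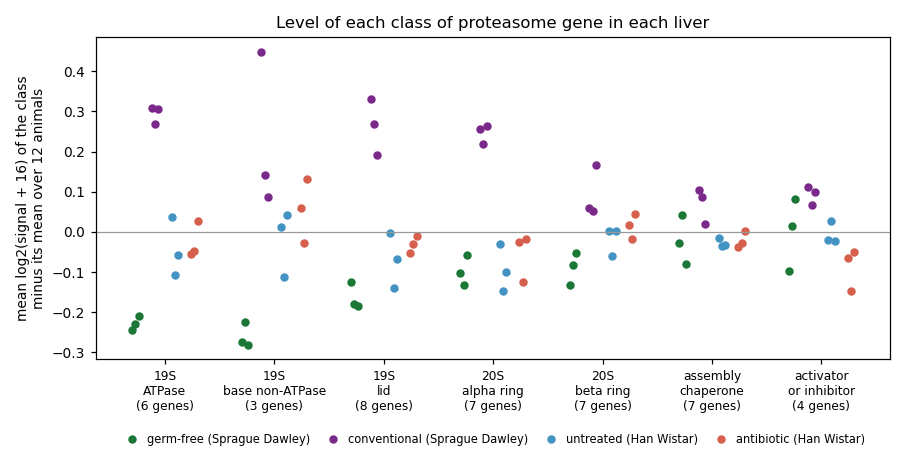
Mean log2(signal + 16) of the genes of each class in each of 12 livers (y axis, minus the class mean over the 12 animals), by class (x axis) and group (colour), 1 point per animal. The germ-free animals lie below every conventional animal in the ATPase, base, lid, alpha ring and beta ring classes, and the groups overlap for the assembly chaperones.

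Promoter sequence was available from RefSeq (assembly GRCr8) for 38 of the 42 genes, and not for Psma7, Psmd6, Psmd12 and Psmd14. The 250 bases before the annotated start are shown for 4 of the 5 genes with the lowest fold change, chosen after their values were seen, to let the regulatory sequence be read beside the values. Capitals mark CCAAT, the box bound by the factor NF-Y, or TGANNNNGC, the core of the antioxidant response element bound by NFE2L1 and NFE2L2, on either strand. None of the 4 holds both motifs, so no matches overlap. The regions are chr3:97487393-97487642 on the plus strand for Psmc3, chr6:125122247-125122496 on the plus strand for Psmc1, chr2:185297202-185297451 on the minus strand for Psmd4 and chr11:93763389-93763638 on the minus strand for Psmd2.
Psmc3: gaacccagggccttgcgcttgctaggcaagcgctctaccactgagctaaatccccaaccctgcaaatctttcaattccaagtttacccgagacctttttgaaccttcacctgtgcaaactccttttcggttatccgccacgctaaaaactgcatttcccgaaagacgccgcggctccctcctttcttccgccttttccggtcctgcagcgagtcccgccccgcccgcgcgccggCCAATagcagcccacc
Psmc1: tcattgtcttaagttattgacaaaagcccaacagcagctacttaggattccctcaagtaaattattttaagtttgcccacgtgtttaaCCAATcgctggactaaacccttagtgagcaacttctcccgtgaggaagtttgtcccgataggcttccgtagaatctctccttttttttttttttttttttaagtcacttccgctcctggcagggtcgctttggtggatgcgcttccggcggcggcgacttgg
Psmd4: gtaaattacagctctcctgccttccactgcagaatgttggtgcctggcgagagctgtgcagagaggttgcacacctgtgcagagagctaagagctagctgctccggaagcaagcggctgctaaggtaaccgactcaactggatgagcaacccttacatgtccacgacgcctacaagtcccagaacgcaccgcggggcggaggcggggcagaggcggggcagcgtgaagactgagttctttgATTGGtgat
Psmd2: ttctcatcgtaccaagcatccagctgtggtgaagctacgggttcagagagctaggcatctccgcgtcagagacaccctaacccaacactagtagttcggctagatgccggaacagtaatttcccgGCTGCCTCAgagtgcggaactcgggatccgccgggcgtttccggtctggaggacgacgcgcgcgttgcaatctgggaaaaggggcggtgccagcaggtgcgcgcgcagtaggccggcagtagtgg

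The box in Psmc3 begins 16 bases before the start and that in Psmc1 begins 162 before it. Psmd4 carries it on the reverse strand 9 bases before the start, with another just after the start that is not shown, and Psmd2 carries the TGANNNNGC core on the reverse strand 125 before it. The promoter of Psmc4, the other of the 5 genes, held neither motif. In windows of 250 bases before to 50 after the start, 19 of 38 proteasome promoters held TGANNNNGC, beside 40.5% of 33469 rat promoters. CCAAT stood in 18 of 38, beside 37.5%. Among the 18 genes with a promoter that fell in germ-free livers, 10 held TGANNNNGC and 9 held CCAAT; among the 20 that did not pass, 9 held TGANNNNGC and 9 held CCAAT. A match is a description of the sequence and does not show that a factor binds there, and 10 of the 38 promoters matched neither motif in this window.

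The ATPase ring of the 19S base held the lowest values. Of its 6 genes 5 fell in germ-free livers, with a class median of -0.56. Psmc3 had signals of 466, 406 and 428 in the germ-free and 759, 796 and 797 in the conventional animals, a log2 fold change of -0.83 ± 0.09 (SE, adjusted p = 0.000104). The groups were far from overlapping, and the germ-free mean of 433 ± 30.6 (SD, n = 3) was 55.3% of the conventional mean of 784 ± 21.4. Psmc1, whose ATPase helps to open the gate of the core, had signals of 391, 346 and 363 in the germ-free and 540.1, 571 and 692 in the conventional animals (log2 fold change -0.68 ± 0.11, adjusted p = 0.00158). Every germ-free animal was below every conventional one by a wide margin, and conventional animal 8 was the highest. For Psmc4 the signals were 505, 529 and 548 in the germ-free and 922, 767 and 748 in the conventional animals (log2 fold change -0.60 ± 0.11, adjusted p = 0.00242). For Psmc5 they were 416, 441 and 401 in the germ-free and 621, 576 and 613 in the conventional animals (log2 fold change -0.51 ± 0.09, adjusted p = 0.00302). Psmc2 read 1293, 1404 and 1388 in the germ-free and 1936, 1779.7 and 1831 in the conventional animals (log2 fold change -0.44 ± 0.09, adjusted p = 0.00584). Again no germ-free animal reached the lowest conventional animal in these 3 genes. Psmc6, the remaining ATPase, overlapped between the groups: signals were 459, 529 and 561 in the germ-free and 529, 571 and 519 in the conventional animals, and the log2 fold change was -0.07 ± 0.11 (SE, adjusted p = 0.754).

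The non-ATPase subunits of the base are scaffolds and ubiquitin receptors, and 2 of the 3 fell. Psmd4, the ubiquitin receptor of the base, had signals of 303, 287 and 294 in the germ-free and 492, 441 and 446 in the conventional animals (log2 fold change -0.61 ± 0.09, adjusted p = 0.000706). The 3 germ-free animals lay close together, all below the lowest conventional animal. Psmd2, a scaffold that docks ubiquitin shuttle proteins, had signals of 519, 568 and 491 in the germ-free and 899, 677 and 749 in the conventional animals (log2 fold change -0.54 ± 0.11, adjusted p = 0.00599). Conventional animal 6 was the highest, and the germ-free animals were still below the others. Psmd1, the other large scaffold, overlapped between the groups, with means of 317 ± 12.8 and 403 ± 101 and a log2 fold change of -0.30 ± 0.14 (SE, adjusted p = 0.182).

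In the lid 6 of 8 genes fell, and the class median was -0.41. Psmd7, the partner of the deubiquitinase, had signals of 493, 506 and 404 in the germ-free and 762, 652 and 626 in the conventional animals (log2 fold change -0.53 ± 0.11, adjusted p = 0.00535). The groups did not overlap, and a second probe set of Psmd7 also fell. The deubiquitinase itself, Psmd14, which cuts the ubiquitin chain from the substrate, did not pass: signals were 417, 456 and 439.6 in the germ-free and 625, 525 and 521 in the conventional animals (log2 fold change -0.33 ± 0.11, adjusted p = 0.062). All of its germ-free animals were nonetheless below all conventional animals on this probe set. Other probe sets of Psmd14 had log2 fold changes of -0.13 and -0.15, and on these the groups overlapped. The other lid genes encode structural subunits that hold the lid together. Psmd8 had signals of 668, 612 and 689.7 in the germ-free and 804, 836 and 904 in the conventional animals (log2 fold change -0.36 ± 0.09, adjusted p = 0.021). For Psmd13 they were 258, 249 and 231 in the germ-free and 332, 339 and 306 in the conventional animals (log2 fold change -0.38 ± 0.11, adjusted p = 0.039). Neither gene had a germ-free animal within the conventional range. Psmd11, which contacts both the base and the core, fell from a mean of 1264 ± 128 to 892 ± 78.1 (log2 fold change -0.49 ± 0.10, adjusted p = 0.00564), although its other probe set that passed the filter did not fall. Psmd3 fell from 385 ± 80.7 to 268 ± 36.6 (log2 fold change -0.49 ± 0.14, adjusted p = 0.0317). Psmd6 fell from 759 ± 18.2 to 555 ± 48.2 (log2 fold change -0.44 ± 0.11, adjusted p = 0.0207). Psmd12, at 340.0 ± 52.5 against 448 ± 69.2, did not pass (log2 fold change -0.38 ± 0.13, adjusted p = 0.0758), and its groups overlapped.

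**Figure D4:**
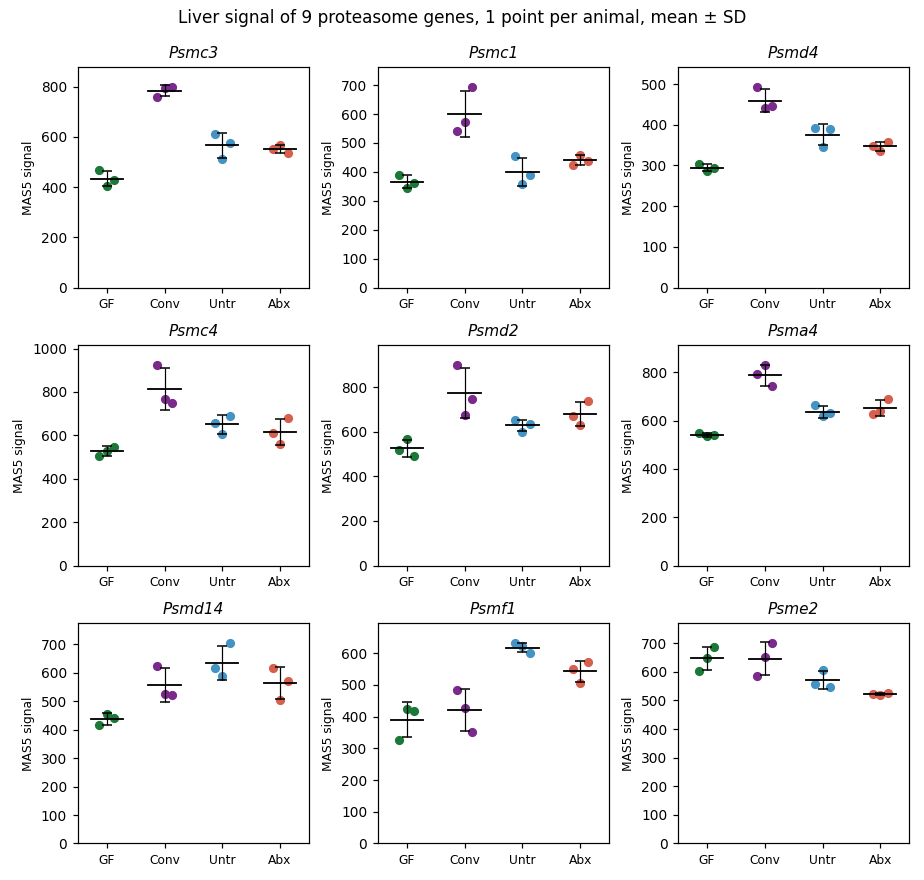
MAS5 signal (y axis, linear, from 0) of 9 proteasome genes in each liver; GF is germ-free and Conv conventional Sprague Dawley, Untr untreated and Abx antibiotic-treated Han Wistar, with 3 animals each, the horizontal line at the mean and the bar at ± SD. For Psmc3 the germ-free animals sit between 406 and 466 and the conventional animals between 759 and 797, whereas Psmf1 and Psme2 overlap between the Sprague Dawley groups.

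The alpha ring, which forms the gate of the core, had 4 of 7 genes that fell and a class median of -0.35. Psma4 had signals of 548, 535 and 539 in the germ-free and 793, 829 and 743 in the conventional animals (log2 fold change -0.53 ± 0.09, adjusted p = 0.00124). The germ-free animals agreed closely, all far below the conventional animals. Psma7 fell from a mean of 1229 ± 80.2 to 862 ± 32.5 (log2 fold change -0.50 ± 0.09, adjusted p = 0.00235). For Psma1 signals were 718, 727 and 809 in the germ-free and 1014, 940.0 and 948 in the conventional animals (log2 fold change -0.36 ± 0.11, adjusted p = 0.0377). For Psma5 they were 921, 935 and 1126 in the germ-free and 1267, 1197 and 1308 in the conventional animals (log2 fold change -0.34 ± 0.10, adjusted p = 0.037). The gap between the groups was narrower in Psma1 and Psma5 than in Psma4. Psma2 did not pass (log2 fold change -0.35 ± 0.11, adjusted p = 0.0549), nor did Psma3 (log2 fold change -0.09 ± 0.12, adjusted p = 0.676). A brighter probe set that names Psma3 together with Psma3l was lower in germ-free livers (-0.65 ± 0.09, limma adjusted p = 0.00063 in a fit over every probe set). Which of these genes it reads was not tested, so the value for Psma3 rests on its dimmer probe set. Psma6 had signals of 2337, 2101 and 2244 in the germ-free and 2418, 2619 and 2824 in the conventional animals and did not pass (log2 fold change -0.23 ± 0.09, adjusted p = 0.105), though its groups did not overlap.

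In the beta ring 2 of 7 genes fell, and the class median was -0.16. Both encode subunits without a proteolytic site. The proteolytic subunit Psmb6 is not among the 7, because its only probe set also names Psmb6l1. That probe set was lower in germ-free livers in a fit over every probe set (log2 fold change -0.42 ± 0.12, limma adjusted p = 0.0379). Which of the 2 genes it reads was not tested. Psmb4 fell from a mean of 2041 ± 215 to 1433 ± 46.7 (log2 fold change -0.50 ± 0.10, adjusted p = 0.00436). Psmb1 had signals of 1427, 1425 and 1546 in the germ-free and 1691, 1717 and 2032 in the conventional animals (log2 fold change -0.30 ± 0.09, adjusted p = 0.0426). Of the other subunits without a proteolytic site, Psmb2 had a log2 fold change of -0.16 ± 0.10 (SE, adjusted p = 0.33) and Psmb3 one of -0.14 ± 0.08 (SE, adjusted p = 0.279); neither passed. Among the proteolytic subunits, Psmb5, which cuts after hydrophobic residues, had signals of 1213, 937 and 1038 in the germ-free and 1269, 1304 and 1369.5 in the conventional animals. Its log2 fold change was -0.31 ± 0.10 (SE, adjusted p = 0.0596), with a 95% interval of -0.53 to -0.09, and it did not pass although the groups did not overlap. Psmb7, which cuts after basic residues, had signals of 879, 898 and 920.2 in the germ-free and 942, 862 and 1037 in the conventional animals (log2 fold change -0.07 ± 0.09, adjusted p = 0.666). Those groups overlapped, and the 95% interval was -0.27 to 0.13. Psmb10, the inducible subunit that replaces Psmb7 in the immunoproteasome, had signals of 126, 207 and 157 in the germ-free and 133, 144 and 130.1 in the conventional animals (log2 fold change 0.22 ± 0.14, adjusted p = 0.352), also overlapping.

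The other inducible subunits are no members of the set and are given for comparison. Psmb8, which replaces Psmb5, rose in germ-free livers: signals were 436, 607 and 672 in germ-free and 204, 301 and 338 in conventional animals, with a log2 fold change of 0.99 ± 0.20 (SE, adjusted p = 0.00537). Psmb9, which replaces Psmb6, read 156, 173 and 236 and 81.8, 126 and 119.6 and rose by 0.71 ± 0.16 on the log2 scale (adjusted p = 0.0101). In these livers, then, 2 of the 3 inducible subunits rose and Psmb10 did not pass.

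**Figure D5:**
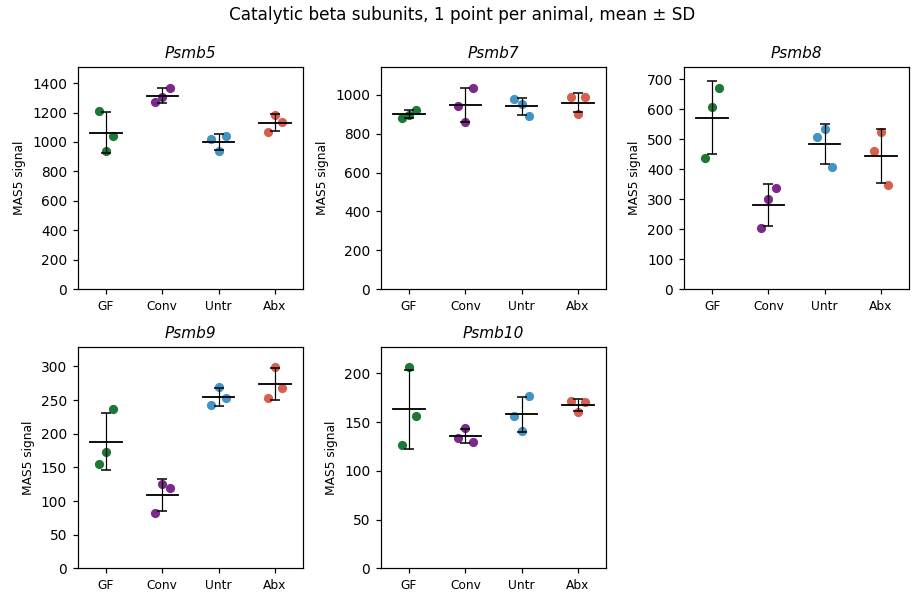
MAS5 signal (y axis, linear, from 0) of the constitutive proteolytic subunits Psmb5 and Psmb7 and of the inducible Psmb8, Psmb9 and Psmb10 in each liver; GF is germ-free and Conv conventional Sprague Dawley, Untr untreated and Abx antibiotic-treated Han Wistar, with the line at the mean of 3 animals and the bar at ± SD. Psmb8 and Psmb9 are higher in all 3 germ-free than in all 3 conventional animals, and Psmb7 and Psmb10 overlap.

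None of the 7 assembly chaperones passed, and their median was -0.10. The pair Psmg1 and Psmg2 starts the alpha ring. Psmg1 had signals of 537, 484 and 532 in the germ-free and 548, 651 and 718 in the conventional animals (log2 fold change -0.29 ± 0.10, adjusted p = 0.0819). Psmg2 had signals of 124, 163 and 149 in the germ-free and 173, 148 and 148 in the conventional animals (log2 fold change -0.10 ± 0.12, adjusted p = 0.609). The groups overlapped for Psmg2 and did not for Psmg1. The pair Psmg3 and Psmg4 acts beside them. Signals of Psmg3 were 269.7, 209 and 138 in the germ-free and 272, 213 and 119 in the conventional animals (log2 fold change 0.05 ± 0.24, adjusted p = 0.917), with a wide spread in both groups. Those of Psmg4 were 245, 343 and 355 in the germ-free and 409, 387 and 397 in the conventional animals (log2 fold change -0.34 ± 0.12, adjusted p = 0.0836). Psmd5, Psmd9 and Psmd10 escort the ATPases into the base. Their log2 fold changes were -0.23 ± 0.12 (SE, adjusted p = 0.234) for Psmd5, 0.19 ± 0.10 (SE, adjusted p = 0.236) for Psmd9 and 0.07 ± 0.14 (SE, adjusted p = 0.77) for Psmd10, so the chaperones of the base lay on both sides of 0.

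Of the alternative caps and the inhibitor 1 of 4 fell. Psme4, an activator that caps the core in place of the 19S particle, had signals of 754, 719 and 710.0 in the germ-free and 924, 942 and 966 in the conventional animals (log2 fold change -0.37 ± 0.09, adjusted p = 0.0117). The groups did not overlap, but its other 2 probe sets had log2 fold changes of 0.05 and -0.09, and the gene did not pass when its probe sets were averaged (adjusted p = 0.411). Psme1 and Psme2 form the interferon-inducible activator. Psme1 had signals of 1452, 1509 and 1760.2 in the germ-free and 1498, 1321 and 1581 in the conventional animals (log2 fold change 0.10 ± 0.10, adjusted p = 0.54), and Psme2 had signals of 604, 648 and 687 in the germ-free and 586, 652 and 699 in the conventional animals (log2 fold change 0.00 ± 0.09, adjusted p = 0.988). Psmf1, which encodes an inhibitor of the core, had signals of 326, 425 and 419 in the germ-free and 484, 428 and 353 in the conventional animals (log2 fold change -0.11 ± 0.13, adjusted p = 0.626). In these 3 genes the groups overlapped.

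Of the 20 genes that fell, 13 passed whichever animal was left out. The other 7 each lost the call without some animals, and the count was 13 without germ-free animal 3 or without conventional animal 7. Each of these genes is given with the rats whose removal, 1 at a time, ended the call and the adjusted p then found. For Psma1 these were germ-free rats 1 (0.0866) and 3 (0.123), conventional rats 6 (0.0917), 7 (0.07) and 8 (0.0667) and untreated rats 1 (0.0517) and 2 (0.0506). For Psma5 they were germ-free rats 1 (0.0966) and 3 (0.139) and conventional rats 6 (0.0726), 7 (0.0563) and 8 (0.096). Psmb1, the gene nearest to the threshold, lost it without any 1 of germ-free rats 1 (0.0882), 3 (0.139) and 4 (0.0554), conventional rats 7 (0.0596) and 8 (0.145), untreated rats 1 (0.0599), 2 (0.0607) and 3 (0.0538) and antibiotic-treated rats 13 (0.0509) and 15 (0.058). In the lid they were germ-free rats 3 (0.0959) and 4 (0.119) and conventional rats 6 (0.0793) and 7 (0.109) for Psmd13 and germ-free rats 3 (0.145) and 4 (0.0554) and conventional rats 6 (0.0996) and 7 (0.0532) for Psmd3. They were germ-free rats 3 (0.0961) and 4 (0.0514) and conventional rats 7 (0.0608) and 8 (0.0504) for Psmd6 and germ-free rat 3 (0.0962) and conventional rats 7 (0.0509) and 8 (0.069) for Psmd8. Conversely, 5 genes that did not pass did so without 1 animal: Psma2 without germ-free rat 4 (0.0463) or antibiotic-treated rat 14 (0.0401), Psmb5 without germ-free rat 1 (0.0158), Psmd1 without conventional rat 8 (0.0303), Psmd12 without conventional rat 8 (0.0248) and Psmg1 without conventional rat 6 (0.0202). With the beta-actin ratio as a covariate 11 genes passed, since 10 of the 20 were lost and Psmd5 was gained, and the median was -0.36. Psmc1 to Psmc5, Psmd2, Psmd4, Psmd7, Psma4 and Psma7 passed in every one of 25 alternatives.

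In antibiotic-treated Han Wistar rats none of the 42 genes passed, in a comparison where 0.0215% of all genes did, and 1 (Psma6) had an unadjusted p under 0.05 where 10.4% of all genes had. The median log2 fold change was 0.03, beside 0.00 for all genes, with a range of -0.18 to 0.24, and 19 of the 42 estimates lay below 0, beside 49.7% of all genes. The groups did not overlap in 4 genes that were higher (Psma6, Psmb5, Psmd1 and Psme1) and 3 that were lower (Psmd8, Psmf1 and Psme2), 7 of 42 in all; the shares among all genes were 9.19% higher, 9.12% lower and 18.3% in either direction. The 95% intervals of the 42 genes together ran from -0.46 to 0.59, so a fall of the size seen for Psmc3 in germ-free livers lay outside the interval of every gene. A fall of the size of the germ-free median (-0.34) lay inside the interval of some genes, such as Psmf1 (-0.46 to 0.09). It lay outside that of others, such as Psmc3 (-0.23 to 0.17). None passed under any alternative.

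The antibiotic log2 fold changes follow the signals in parentheses, with their SE. Signals of Psmc3 were 612, 513 and 575 in the untreated and 552, 568 and 536 in the antibiotic-treated animals (-0.03 ± 0.09), which overlapped. Those of Psmc1 were 454, 359.6 and 389 in the untreated and 424, 458 and 439 in the antibiotic-treated animals (0.14 ± 0.11). For Psmd4 they were 392, 346 and 389 in the untreated and 348, 336 and 357 in the antibiotic-treated animals (-0.11 ± 0.09). The genes with the lowest values in germ-free rats thus had estimates on either side of 0 here. Psma4 read 664, 617 and 630.1 in the untreated and 626, 640.2 and 691 in the antibiotic-treated animals (0.03 ± 0.09). Psmd14 read 615, 589 and 703 in the untreated and 618, 504 and 572 in the antibiotic-treated animals (-0.17 ± 0.11). Of the proteolytic subunits Psmb5 read 1018, 938 and 1041 in the untreated and 1069, 1183 and 1137 in the antibiotic-treated animals (0.17 ± 0.10), just apart between the groups. Psmb7 read 977, 952 and 891 in the untreated and 988, 904 and 989 in the antibiotic-treated animals (0.03 ± 0.09) and overlapped. Psma6, with the smallest unadjusted p, read 1789.6, 1749 and 1720.0 in the untreated and 2192, 1921 and 2132 in the antibiotic-treated animals (0.24 ± 0.09), higher in each treated animal. Psmf1 read 631, 622 and 601 in the untreated and 549.6, 505 and 573 in the antibiotic-treated animals (-0.18 ± 0.13), lower in each treated animal. Psme2 read 558, 606 and 547 in the untreated and 524, 520.3 and 526 in the antibiotic-treated animals (-0.12 ± 0.09), also lower in each. Psme4 read 494, 530.0 and 542 in the untreated and 506, 460.3 and 507 in the antibiotic-treated animals (-0.09 ± 0.09). None of these differences passed, with adjusted p from 0.356 for Psma6 to 0.958 for Psmb7. All 7 hepatocyte markers tested were higher in every treated animal than in every untreated animal and none passed, with summed signals of 41031 to 50603 and 30935 to 37515; the part of this in the values for the proteasome was not tested.

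The difference between the germ-free and the antibiotic fold change was tested as a contrast of its own. It passed for 8 of the 42 genes, all lower in the germ-free comparison, where 3.25% of all genes passed in that direction, 2.69% in the other and 5.94% in either. The comparisons differ in strain as well as in treatment, and these cannot be told apart. They also differ in the beta-actin ratio. It averaged 4.39 in germ-free and 5.37 in conventional rats, and 2.73 in antibiotic-treated and 2.55 in untreated rats. The part of this in the difference was not tested, beyond the fit with the ratio as a covariate. Psmc3 had a difference of -0.80 ± 0.13 (SE, adjusted p = 0.00356), the only one of the 8 to pass under every alternative run. Psmc1 had one of -0.82 ± 0.16 (SE, adjusted p = 0.00942) and Psma4 one of -0.56 ± 0.12 (SE, adjusted p = 0.0162), and both passed whichever animal was left out. Both were lost with the actin ratio as a covariate (adjusted p = 0.0578 and 0.0712). The remaining 5 lay near the threshold. For Psmd2 the difference was -0.64 ± 0.16 (SE, adjusted p = 0.0306), and it was lost on removing any 1 of germ-free rat 4 (0.0646), untreated rats 1 (0.0523), 2 (0.0749) and 3 (0.0551) and antibiotic-treated rats 13 (0.0545) and 15 (0.0727). For Psmd7 it was -0.59 ± 0.15 (SE, adjusted p = 0.0356), lost on removing any 1 of germ-free rat 4 (0.0718), conventional rats 6 (0.0642) and 7 (0.0553), untreated rats 1 (0.0659), 2 (0.0829) and 3 (0.0665) and antibiotic-treated rats 13 (0.056), 14 (0.064) and 15 (0.0793). For Psmd4 it was -0.51 ± 0.13 (SE, adjusted p = 0.0359), lost on removing any 1 of germ-free rats 3 (0.0873) and 4 (0.0634), conventional rats 6 (0.0618) and 7 (0.0539), untreated rats 1 (0.0585), 2 (0.0935) and 3 (0.0562) and antibiotic-treated rats 13 (0.0687), 14 (0.0549) and 15 (0.0805). Psma7 differed by -0.49 ± 0.13 (SE, adjusted p = 0.0364), lost on removing any 1 of germ-free rats 1 (0.0518) and 3 (0.0885), conventional rats 6 (0.0646) and 8 (0.0596), untreated rats 1 (0.0563), 2 (0.0854) and 3 (0.0762) and antibiotic-treated rats 13 (0.0779) and 14 (0.0673). Psma6, which passed in neither comparison by itself, differed by -0.48 ± 0.13 (SE, adjusted p = 0.0417), lost on removing any 1 of germ-free rats 3 (0.111) and 4 (0.0685), conventional rats 7 (0.0775) and 8 (0.0797), untreated rats 1 (0.0775), 2 (0.0883) and 3 (0.0822) and antibiotic-treated rats 13 (0.084) and 15 (0.0948). With 1 animal left out, 3 to 9 of the 42 genes passed.

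Genes that work beside the proteasome were read from lists chosen by function. Of 22 partners and ubiquitin shuttles 7 fell and 1 rose in germ-free livers, where 6.74% of all genes fell and 6.44% rose, and their median was -0.24, beside 0.02 for all genes. Vcp, the segregase that extracts ubiquitinated proteins, fell from 1920.3 ± 147 to 1317 ± 64.2 (log2 fold change -0.54 ± 0.09, adjusted p = 0.00156). Usp14, a deubiquitinase bound to the base, fell from 616 ± 26.8 to 445 ± 32.8 (log2 fold change -0.46 ± 0.09, adjusted p = 0.00611). Txnl1, a thioredoxin of the 19S particle, fell from 1775 ± 172 to 1268 ± 198 (log2 fold change -0.49 ± 0.11, adjusted p = 0.0108). These 3 passed whichever animal was left out. Ecpas, a scaffold of the 26S particle, fell (log2 fold change -0.34 ± 0.09, adjusted p = 0.0253) but was lost on removing any 1 of germ-free rats 3 (0.0998) and 4 (0.0622) and conventional rats 6 (0.0657) and 7 (0.0749). The shuttle Ubqln1 fell (log2 fold change -0.30 ± 0.09, adjusted p = 0.0382) and was lost on removing any 1 of germ-free rats 3 (0.108) and 4 (0.109), conventional rats 7 (0.114) and 8 (0.0875) and untreated rat 1 (0.0525). Zfand2a, an arsenite-inducible partner, had signals of 55.9, 26.8 and 54.0 in the germ-free and 339, 111 and 76.6 in the conventional animals and fell (log2 fold change -1.42 ± 0.36, adjusted p = 0.0188). Its log2 fold change was -0.85 without conventional rat 6, the highest animal, and it was lost on removing germ-free rat 3 (0.0919). Zfand5, an activator of the 26S particle, fell (log2 fold change -0.50 ± 0.15, adjusted p = 0.047) and was lost on removing any 1 of germ-free rats 3 (0.155) and 4 (0.161), conventional rats 7 (0.0977) and 8 (0.15), untreated rat 2 (0.0631) and antibiotic-treated rats 13 (0.0554) and 15 (0.058). Akirin2, which carries proteasomes into the nucleus, rose (log2 fold change 0.54 ± 0.16, adjusted p = 0.043) and was lost on removing any 1 of germ-free rats 1 (0.0617), 3 (0.167) and 4 (0.0655), conventional rats 6 (0.107) and 7 (0.112), untreated rat 2 (0.0589) and antibiotic-treated rat 15 (0.055).

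A list of Nfe2l1, Nfe2l2 and genes that regulate or pair with them had 9 genes tested, with a median of -0.01. The transcription factor Nfe2l1 was the 1 gene of the 9 to fall, from 88.3 ± 10.5 to 53.4 ± 11.8 (log2 fold change -0.60 ± 0.18, adjusted p = 0.0422). It was lost on removing any 1 of germ-free rats 3 (0.148) and 4 (0.128), conventional rats 6 (0.111), 7 (0.0546) and 8 (0.0905), untreated rat 1 (0.0522) and antibiotic-treated rat 15 (0.0535), and when its probe sets were averaged (adjusted p = 0.363). Another list held genes of ubiquitin, of Nedd8 and of the activating (E1) and conjugating (E2) enzymes for ubiquitin and related proteins. Of its 15 genes tested 1 rose, Uba6 (log2 fold change 0.72 ± 0.15, adjusted p = 0.00553), and none fell. In the interferon-gamma and class I peptide list 3 of 12 rose, Psmb8, Psmb9 and the peptide transporter Tap1 (log2 fold change 0.68 ± 0.13, adjusted p = 0.00366). Of 21 autophagy genes, the other main route of protein breakdown, Map1lc3a fell (log2 fold change -0.62 ± 0.12, adjusted p = 0.0037) and Pik3c3 rose (log2 fold change 0.66 ± 0.15, adjusted p = 0.0108). Beside the 13.2% of all genes that passed in either direction, 11.1% of the Nfe2l1 list, 6.67% of the ubiquitin list and 9.52% of the autophagy list passed, shares no higher than the background, and 25% of the class I list passed. Of the genes of these lists named here, Usp14, Ecpas, Ubqln1, Zfand5, Akirin2, Nfe2l1, Uba6, Tap1 and Pik3c3 did not pass with the actin ratio as a covariate (adjusted p from just above 0.05 for Tap1 to 0.316 for Zfand5). After quantile normalisation Akirin2 (0.0777), Ubqln1 (0.0937) and Zfand5 (0.0564) did not pass, and with probe sets averaged Ecpas (0.61) and Zfand5 (0.192) did not. In antibiotic-treated rats no gene of any of the 5 lists passed.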

How the data were processed

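Each probe set has 1 linear signal intensity per array, deposited by the authors; the submitters' processing notes name MAS5, with no version named. Per the labels' protocols, RNA was purified on Qiagen RNeasy columns. Depth has no meaning for arrays, and the number of arrays limits the precision (median standard error 0.144).

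Of 31099 probe sets, 57 controls were set aside and 20826 had 1 gene symbol in the platform annotation. A probe set was kept where its mean signal reached the median of 19.67, and the probe set with the highest mean stood for each gene. Values were fitted as log2(signal + 16) with limma 3.58.1 in R 4.3.3 (lmFit, eBayes with an intensity trend) over all 12 arrays with 1 mean per group. Germ-free was set against conventional, antibiotic against untreated, and these fold changes against each other. P-values were two-sided, adjusted by Benjamini-Hochberg over 9300 genes, with a threshold of 0.05. The script was tested on simulated data.

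The members and lists were chosen with earlier results of these data known, so their counts are descriptions. Values per animal are given for the 8 highest and 8 lowest fold changes among genes that passed in any contrast, and for a fixed list of catalytic, gate, receptor, activator and chaperone genes; of each pathway list, the genes that passed are named. Alternatives were the offset, the filter, the scaling, the spread estimate, the choice of probe set, the actin ratio as a covariate, and each animal left out. Probe sets that name several genes were not used in the tests.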

Additional observations from a re-analysis of the deposited data

Results flagged for a closer look

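The germ-free and the antibiotic log2 fold change differed, by limma's contrast of the difference, for Psmc3 (-0.80), Psmc1 (-0.82), Psmd4 (-0.51), Psmd2 (-0.64), Psma4 (-0.56), Psmd7 (-0.59), Psma7 (-0.49) and Psma6 (-0.48). Among genes of the lists, Psmb8 (1.12), Pik3c3 (1.36), Tap1 (0.70) and Vcp (-0.62) differed in the same test, which 5.94% of all genes passed. For Pik3c3 the log2 fold change was 0.66 in the germ-free comparison and -0.70 with antibiotics, where it did not pass. Its difference thus has a part from each comparison.

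Of the 6 probe sets that name several genes and were outside the comparisons, 4 differed between germ-free and conventional livers in a fit over every probe set. The probe set naming Psma3 and Psma3l had means of 1142 ± 58.4 and 1806 ± 131 (SD, n = 3) and a log2 fold change of -0.65, and which of the genes it reads was not tested. The probe set naming Psmb6 and Psmb6l1 had means of 552 ± 39.7 and 743 ± 88.4 and a log2 fold change of -0.42. Of 4 probe sets naming Psme3 together with Aoc3 and G6pc1, 2 were higher, by 2.56 and 1.85 on the log2 scale. The other two did not pass, with log2 fold changes of -0.17 (limma, adjusted p = 0.273) and -0.15 (adjusted p = 0.491).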

How the results depend on the processing

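Of the proteasome genes 20 fell in germ-free livers, and the count was 11 with the actin ratio as a covariate and 13 to 21 with 1 animal left out; no gene rose and no call changed direction under any alternative. The median of -0.34 became -0.29 after quantile normalisation, -0.45 after median centring and -0.30 over every probe set, and was -0.36 to -0.31 with 1 animal left out. The distance to the median of all genes was -0.37 in the main setting. Centring shifts every fold change alike, so this distance could not differ after it. For antibiotics no gene passed under any alternative, and the median of 0.03 became -0.016 after centring and 0.01 to 0.05 with 1 animal left out. The difference passed in 8 genes, and in 13 after centring, 4 without the variance trend, 16 with array weights, 2 with the actin covariate and 3 to 9 with 1 animal left out. The share of all genes that passed in each of these settings is not given. These changes in the count are therefore not shown to be particular to proteasome genes. The covariate leaves fewer degrees of freedom, and the cause of these changes was not tested. Over all genes, 1226 passed in the germ-free comparison, 623 with the actin covariate and 654 without germ-free animal 3. A fit on the 6 arrays of each strain gave 14 genes that fell, and no value for the difference. No paired analysis was possible because the groups compared share no animal numbers.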
